A study of Mus musculus with 6 samples.

Results

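The genes described here encode the enzymes and receptors of the prostaglandin and leukotriene pathways. There were 10 of them, out of 36047 genes in the deposited data: Pla2g4a, Ptgs1, Ptgs2, Ptges, Ptgis, Alox5, Alox5ap, Ltc4s, Ptger4 and Ptger2. They were chosen by name from knowledge of the pathway, with earlier results of these data known. Their mRNA levels were measured by RNA sequencing of infarct tissue from 6 mice, of which 3 received LGK974 and 3 received the vehicle DMSO. The question was whether these genes differed in the infarct when Wnt secretion was blocked.

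All mice were of the strain C57BL6, were labelled as 12 weeks old, and had ischemia/reperfusion (I/R) injury, in which a coronary artery is occluded for a limited time and then reopened. Tissue of the infarct area was cut from the heart 48 h after I/R. No uninjured or untreated heart was among the libraries, so both groups shared the injury. LGK974 inhibits Porcupine, an acyltransferase without whose lipid anchor Wnt proteins are not secreted. It was given by mouth and acts in the whole animal, so the libraries do not show in which cells Wnt secretion was blocked. Whole infarct tissue holds many cell types, and fewer cells of a type cannot be told apart from less RNA per cell in any value given here.

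Prostaglandins and leukotrienes are lipid signals made from arachidonic acid, which a phospholipase releases from membranes. The cyclooxygenases Ptgs1 and Ptgs2 turn it into a precursor from which terminal synthases make prostaglandin E, prostacyclin and other prostanoids. In the other branch Alox5, with its membrane partner Alox5ap, starts leukotriene synthesis, and Ltc4s attaches glutathione to make the cysteinyl leukotrienes. Leukotrienes are made mainly by myeloid cells and mast cells, prostacyclin mainly by vessel walls and mesenchymal cells. In infarcted hearts these lipids are known to act on vessel tone, platelets and leukocyte entry.

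The regions before the start sites of 4 of the genes are shown because the pair of cyclooxygenases is known for contrasting control, constitutive for Ptgs1 and inducible for Ptgs2, and because Pla2g4a acts before both branches and Alox5 begins the leukotriene branch. Each is the 250 bases upstream of the RefSeq start on mouse build GRCm38.p6, written 5′ to 3′ on the strand of the gene. The regions are chr2:36230176-36230425 (plus strand) for Ptgs1, chr1:150099781-150100030 (plus) for Ptgs2, chr1:149961291-149961540 (minus) for Pla2g4a and chr6:116461179-116461428 (minus) for Alox5. Capitals mark matches on either strand to a TATA box (TATAAA), a GC box (GGGCGG), the core of a cAMP response element (TGACG), an E-box (CACGTG) or a palindromic C/EBP site (TTGCGCAA).
Ptgs1: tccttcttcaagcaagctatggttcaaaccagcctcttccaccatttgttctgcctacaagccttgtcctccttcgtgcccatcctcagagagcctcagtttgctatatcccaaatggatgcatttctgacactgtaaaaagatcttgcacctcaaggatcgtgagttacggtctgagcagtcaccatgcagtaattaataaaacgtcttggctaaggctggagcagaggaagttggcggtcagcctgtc
Ptgs2: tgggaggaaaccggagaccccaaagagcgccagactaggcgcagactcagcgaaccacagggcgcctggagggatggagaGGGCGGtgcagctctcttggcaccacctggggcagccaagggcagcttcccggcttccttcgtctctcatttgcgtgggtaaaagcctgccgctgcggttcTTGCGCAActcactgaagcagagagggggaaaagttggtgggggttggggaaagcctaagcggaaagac
Pla2g4a: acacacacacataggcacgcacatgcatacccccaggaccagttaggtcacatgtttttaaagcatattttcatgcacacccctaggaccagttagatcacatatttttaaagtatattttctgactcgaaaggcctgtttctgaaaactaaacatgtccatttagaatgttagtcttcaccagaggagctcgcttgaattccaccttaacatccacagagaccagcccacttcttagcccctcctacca
Alox5: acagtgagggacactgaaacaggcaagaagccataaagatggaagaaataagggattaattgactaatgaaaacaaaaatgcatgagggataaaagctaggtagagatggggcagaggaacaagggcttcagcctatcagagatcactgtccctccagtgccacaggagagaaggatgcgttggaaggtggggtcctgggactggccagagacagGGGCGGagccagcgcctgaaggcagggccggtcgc

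The Ptgs2 region held a GC box 170 bases and the palindromic C/EBP site 69 bases before the start. Just after the start lay a cAMP response element core that overlaps an E-box, at chr1:150100034-150100063 on the plus strand.
Ptgs2 element: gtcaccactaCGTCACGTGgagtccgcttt
Alox5 had a GC box 35 bases before its start, and the Ptgs1 and Pla2g4a regions shown held none of these letters. A further RefSeq start of Pla2g4a, within the gene, has a window at chr1:149922390-149922689 (minus strand) that held a TATA box on the opposite strand, 200 bases before that start. Windows from 250 bases before to 50 bases after the start were at hand for 8 of the 10 genes and for 32851 mouse promoters in all. The GC box occurred in 35.7% of all windows, the cAMP response element core in 20.8%, the TATA box in 13.6% and the E-box in 7.15%. The palindromic C/EBP site was rare, in 60 windows or 0.183%. These matches describe the letters alone.

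The libraries held 46208470 to 80398211 estimated counts with LGK974 and 41579787 to 48517100 with DMSO. Mitochondrial genes took 28.2% to 53.7% of the counts with LGK974 and 39.3% to 42.8% with DMSO. The library of DMSO replicate 1 stood apart. Its log2 CPM correlated with the other libraries at r = 0.841 to 0.925, whereas the others correlated with each other at 0.923 to 0.966. Genes of odorant, vomeronasal and taste receptors, which the heart is not thought to use, gave counts in 99.3% of cases there and in 60.4% to 88.5% of cases elsewhere. Their median was 34.4 counts per kb in DMSO replicate 1, beside 3.31 and 13.1 in the other DMSO libraries and 3.34 to 12.1 in the LGK974 libraries. The values of the 10 genes, the lists and the ratios are therefore also given without DMSO replicate 1.

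Alox5ap and Pla2g4a were higher and Ptgs1 was lower in the LGK974 libraries, each at an unadjusted p under 0.05, and none of the 10 genes passed the adjusted threshold. Differences were tested with edgeR's quasi-likelihood test over 20094 genes, and levels are given as CPM, estimated counts scaled to the normalised library size. All 10 genes passed the filter on low counts. The 3 genes stand beside a background of 13.4% of all tested genes at an unadjusted p under 0.05, of which 6.26% of tested genes were higher and 7.18% lower. Without DMSO replicate 1 it was again these 3 genes, beside a background of 11.0%. No gene of the whole table passed an adjusted p of 0.05 in edgeR, with a lowest adjusted p of 0.368 and 2699 genes at an unadjusted p under 0.05. DESeq2, run without the filter on low counts, called 315 genes and none of the 10. This is 1.42% of the 22238 genes to which it gave an adjusted p. In CPM, groups did not overlap for 4 of the 10 genes, beside 18.0% of all tested genes. Of these 4, 3 were higher with LGK974 (10.7% of all tested genes) and 1 was lower (7.27%). The median log2 fold change was 0.17 over the 10 genes and -0.13 over all genes, with 7 genes higher and 3 lower.

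**Figure D1:**
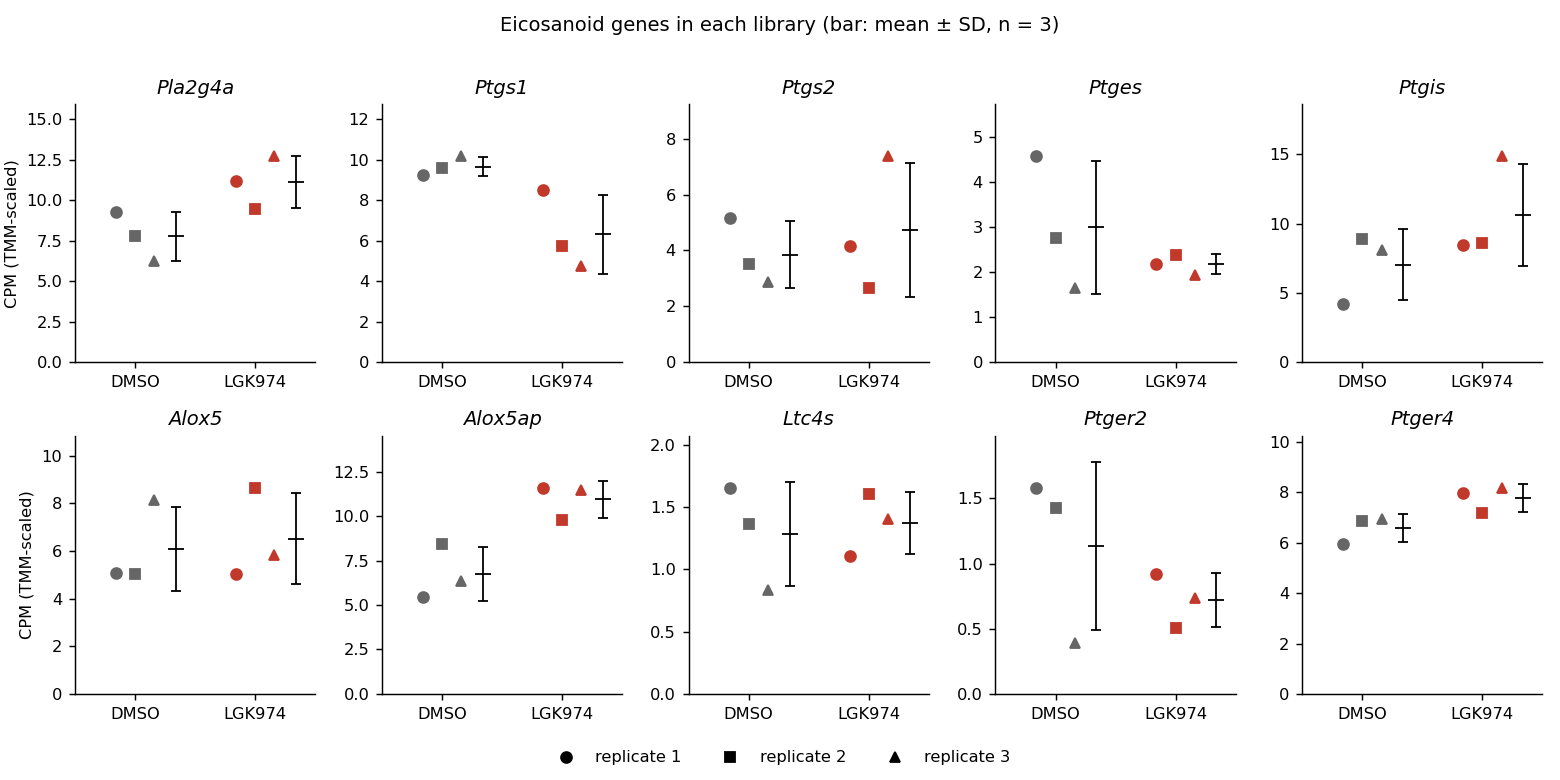
Level of each prostaglandin and leukotriene gene in CPM (vertical axis, from 0) in the 3 DMSO and the 3 LGK974 libraries (horizontal axis), with bars for the mean and its SD and a marker shape for the replicate number. The groups do not overlap for Pla2g4a, Alox5ap and Ptger4, which are higher with LGK974, and for Ptgs1, which is lower; they overlap for the other 6 genes.

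Pla2g4a, the cytosolic phospholipase that frees arachidonic acid, lies on chromosome 1 at 149829618 to 149961290 on the minus strand. Its level was 11.2, 9.48 and 12.7 CPM in LGK974 replicates 1, 2 and 3 and 9.27, 7.78 and 6.26 CPM in DMSO replicates 1, 2 and 3. Every LGK974 library was above every DMSO library, although LGK974 replicate 2 and DMSO replicate 1 were close. The means were 11.1 ± 1.63 CPM with LGK974 and 7.77 ± 1.51 CPM with DMSO (SD, n = 3 each). The log2 fold change was 0.52 (SE 0.215, 95% interval 0.02 to 1.02), with an unadjusted edgeR p of 0.0438 and an adjusted p of 0.368. With each library left out in turn it ranged from 0.49 to 0.69 (0.68 without DMSO replicate 1), and the unadjusted edgeR p was under 0.05 in 2 of 6 such fits, 0.0082 without DMSO replicate 1 and 0.0233 without LGK974 replicate 2. It was 0.116 without LGK974 replicate 1, 0.0924 without LGK974 replicate 3, 0.108 without DMSO replicate 2 and 0.0596 without DMSO replicate 3. The unadjusted p was 0.0491 in DESeq2. In edgeR it was 0.118 with counts scaled from TPM and 0.0544 with library totals in place of TMM.

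The constitutive cyclooxygenase gene Ptgs1 lies on chromosome 2 at 36230426 to 36252272 on the plus strand, and the enzyme is known for supplying the precursor of thromboxane in platelets. Its level was 8.50, 5.75 and 4.74 CPM in LGK974 replicates 1, 2 and 3 and 9.25, 9.58 and 10.2 CPM in DMSO replicates 1, 2 and 3. The DMSO libraries lay close together and the LGK974 libraries all lay below them, with replicate 1 nearest. With means of 6.33 ± 1.95 CPM and 9.67 ± 0.479 CPM (SD, n = 3 each), the log2 fold change was -0.61 (SE 0.249, 95% interval -1.19 to -0.03). The unadjusted edgeR p was 0.0407 and the adjusted p 0.368. In fits without 1 library, its log2 fold change was -0.90 to -0.36 (-0.62 without DMSO replicate 1). The unadjusted edgeR p was under 0.05 in 2 of 6 such fits, 0.0475 without DMSO replicate 1 and 0.00797 without LGK974 replicate 1. It was 0.184 without LGK974 replicate 2, 0.222 without LGK974 replicate 3, 0.0816 without DMSO replicate 2 and 0.168 without DMSO replicate 3. The unadjusted p was 0.0794 in DESeq2. In edgeR it was 0.272 with library totals in place of TMM and 0.0148 with counts scaled from TPM.

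Ptgs2, the inducible cyclooxygenase (chromosome 1, 150100031 to 150108227, plus strand), is the enzyme on which prostaglandin synthesis in inflamed tissue mostly depends. Its level was 4.16, 2.67 and 7.37 CPM in LGK974 replicates 1, 2 and 3 and 5.18, 3.52 and 2.87 CPM in DMSO replicates 1, 2 and 3. The highest and the lowest library were both LGK974 libraries, so the groups overlapped. The log2 fold change was 0.30 (SE 0.418, 95% interval -0.67 to 1.27, unadjusted edgeR p of 0.499), and it was -0.09 without LGK974 replicate 3 and 0.58 without DMSO replicate 1. The interval leaves room for differences in either direction.

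Ptges, the terminal synthase of prostaglandin E that is induced together with Ptgs2, lies on chromosome 2 at 30889471 to 30929863 on the minus strand. It was measured at 2.19, 2.39 and 1.94 CPM in LGK974 replicates 1, 2 and 3 and at 4.57, 2.75 and 1.65 CPM in DMSO replicates 1, 2 and 3. The LGK974 libraries were alike, whereas DMSO replicate 1 was high and DMSO replicate 3 was the lowest of all. The log2 fold change of -0.46 (SE 0.425, unadjusted edgeR p of 0.312) became 0.0038 without DMSO replicate 1.

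Ptgis makes prostacyclin, the prostanoid that widens vessels and restrains platelets, and lies on chromosome 2 at 167191805 to 167240604 on the minus strand. Its level was 8.43, 8.57 and 14.9 CPM in LGK974 replicates 1, 2 and 3 and 4.17, 8.89 and 8.08 CPM in DMSO replicates 1, 2 and 3. Most libraries lay near each other, with LGK974 replicate 3 above them and DMSO replicate 1 below. The log2 fold change was 0.59 (SE 0.348, 95% interval -0.22 to 1.40, unadjusted edgeR p of 0.130), and 0.34 without DMSO replicate 1.

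The first step of the leukotriene branch needs a pair of proteins. Alox5, the lipoxygenase itself (chromosome 6, 116410077 to 116461178, minus strand), was at 5.04, 8.66 and 5.84 CPM in LGK974 replicates 1, 2 and 3 and at 5.08, 5.03 and 8.13 CPM in DMSO replicates 1, 2 and 3. Each group had a single high library and the others were level. The log2 fold change was 0.10 (SE 0.302, 95% interval -0.60 to 0.80, unadjusted edgeR p of 0.752). Without DMSO replicate 1 the unadjusted p was 0.988.

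Alox5ap, the membrane protein that presents arachidonic acid to Alox5, lies on chromosome 5 at 149264767 to 149288153 on the plus strand. Its level was 11.6, 9.76 and 11.5 CPM in LGK974 replicates 1, 2 and 3 and 5.48, 8.44 and 6.36 CPM in DMSO replicates 1, 2 and 3. In CPM all LGK974 libraries were above all DMSO libraries, of which replicate 2 came nearest, but in TPM the groups overlapped. The means were 10.9 ± 1.03 CPM and 6.76 ± 1.52 CPM (SD, n = 3 each). The corresponding log2 fold change was 0.69 (SE 0.217, 95% interval 0.19 to 1.20). This was the smallest p of the 10 genes, 0.0131 unadjusted and 0.368 adjusted in edgeR, and 0.164 adjusted in DESeq2. Leaving out each library in turn gave 0.58 to 0.88, and the unadjusted edgeR p stayed under 0.05 in 5 of 6 such fits, with 0.0524 without LGK974 replicate 1. The unadjusted edgeR p was 0.101 with counts scaled from TPM and 0.0308 with library totals in place of TMM.

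Ltc4s, the synthase of cysteinyl leukotrienes (chromosome 11, 50236461 to 50238616, minus strand), was low, with 34 to 94 counts in a library. It was at 1.11, 1.60 and 1.41 CPM in LGK974 replicates 1, 2 and 3 and at 1.66, 1.37 and 0.835 CPM in DMSO replicates 1, 2 and 3. The DMSO group held both the highest and the lowest library. Its log2 fold change was 0.09 (SE 0.482, 95% interval -1.03 to 1.21, unadjusted edgeR p of 0.851), and 0.33 without DMSO replicate 1.

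The receptors Ptger4 and Ptger2 both bind prostaglandin E and raise cAMP in the cell. Ptger4 (chromosome 15, 5206661 to 5244187, minus strand) was at 7.96, 7.17 and 8.19 CPM in LGK974 replicates 1, 2 and 3 and at 5.96, 6.85 and 6.95 CPM in DMSO replicates 1, 2 and 3. The groups did not overlap but their nearest libraries almost met, and the log2 fold change was 0.24 (SE 0.187, 95% interval -0.19 to 0.67, unadjusted edgeR p of 0.238), or 0.19 without DMSO replicate 1. Ptger2 (chromosome 14, 44988195 to 45003820, plus strand) was at 0.919, 0.504 and 0.736 CPM in LGK974 replicates 1, 2 and 3 and at 1.58, 1.43 and 0.393 CPM in DMSO replicates 1, 2 and 3. A pair of DMSO libraries was high and the third was the lowest of all. With 16 to 78 counts in a library the log2 fold change of -0.65 had an SE of 0.691 and an unadjusted edgeR p of 0.373, and it was -0.31 without DMSO replicate 1.

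**Figure D2:**
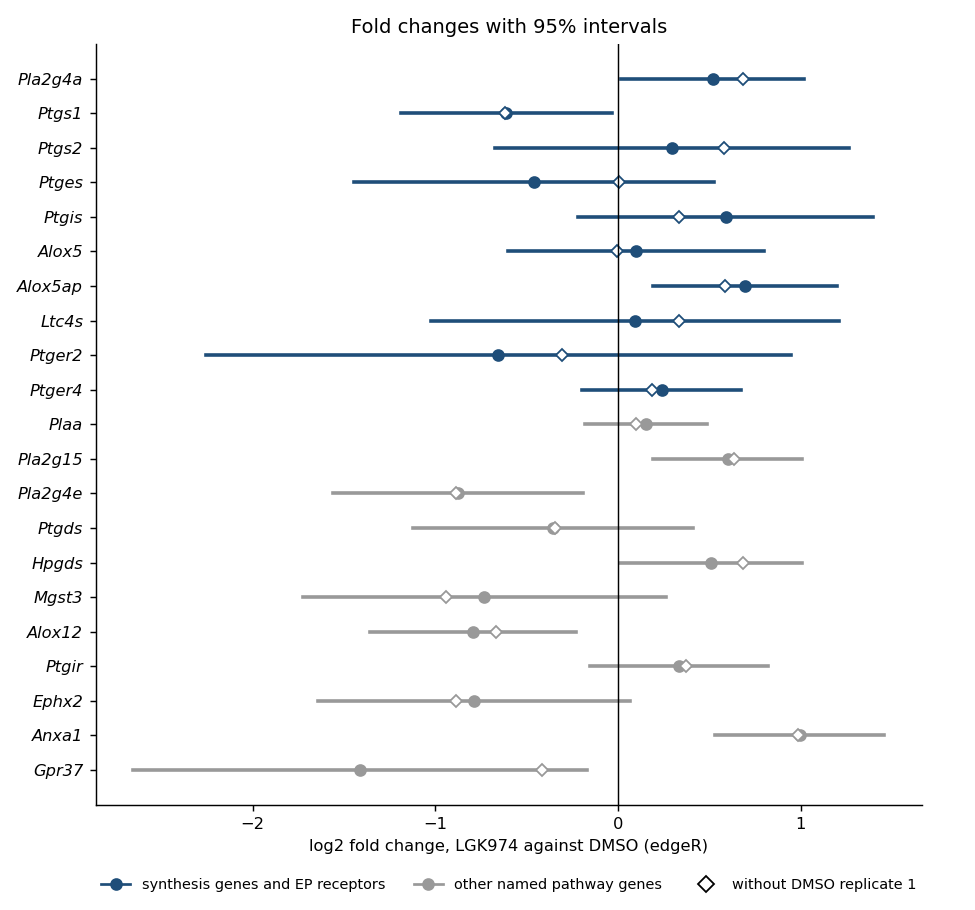
Log2 fold change (LGK974 against DMSO, horizontal axis) of each gene from edgeR with all 6 libraries (dots, with the 95% interval as a line) and without DMSO replicate 1 (open diamonds). Among the 10 genes, the intervals of Alox5ap, Pla2g4a and Ptgs1 exclude 0 before adjustment, and those of Ptger2 and Ltc4s are the widest. Some intervals of the other named genes exclude 0 as well, such as those of Pla2g15 and Pla2g4e.

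Compared per length, as the TPM values of the authors averaged over the 6 libraries, Pla2g4a (15.3 TPM, 9.70 to 27.7) and Alox5ap (11.9 TPM, 3.71 to 23.9) were the most abundant. Next came Ptgis at 7.25 TPM and Ptgs1 at 5.51 TPM, whose order was not settled, as Ptgis was above Ptgs1 in 3 of 6 libraries. Ltc4s at 3.09 TPM was above Alox5 at 2.76 TPM in 4 of 6 libraries, and Alox5 was above Ptger4 at 2.26 TPM in 4 of 6. Ptger4 was above Ptgs2 in 5 of 6. The inducible pair of the prostaglandin E branch was low, with Ptgs2 at 1.27 TPM and Ptges at 0.999 TPM, and Ptger2 was the lowest at 0.295 TPM. The other neighbours in this order kept it in 6 of 6 libraries. In each of the libraries the constitutive Ptgs1 thus had more transcripts per length than the inducible Ptgs2. Of the genes whose groups did not overlap in CPM, only Pla2g4a had no overlap in TPM. For Alox5ap the lowest LGK974 library was at 9.21 TPM and the highest DMSO library at 12.6 TPM. Ptgs1 and Ptger4 overlapped in TPM too.

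Some of these levels were close to those of the receptor families that serve as a measure of background. Per kb, Ptger2 was at 0.620 times the median of those families in DMSO replicate 1 and at up to 4.60 times elsewhere. Ptgs2 and Ptges were both at 1.88 times this median in DMSO replicate 1, and at up to 31.7 and 17.8 times in another library. Pla2g4a and Ptgs1 were the furthest above it there, at 8.69 and 7.52 times, and Alox5ap was at 5.31 times. For each gene the ratio was lowest in DMSO replicate 1, so a difference that involves this library is least certain for the low genes. With the background subtracted, the log2 fold change was 0.91 for Ptger2 and 0.05 for Ptges, in both cases with the opposite sign.

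**Figure D3:**
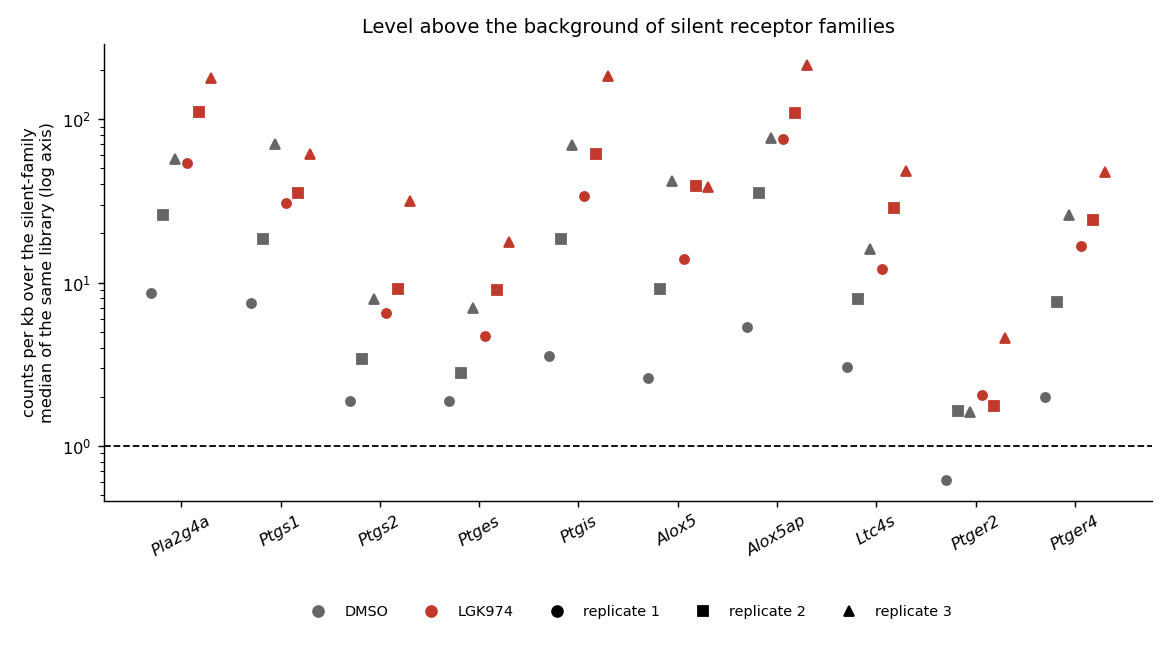
Level of each gene per kb, divided by the median of the odorant, vomeronasal and taste receptor genes of the same library (vertical log axis, dashed line at 1), for each of the 6 libraries. Ptger2 in DMSO replicate 1 is the only point below 1, at 0.620, and the highest ratio is 215 for Alox5ap.

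The share of counts on protein-coding transcripts differed between the genes. It was 100% for Ptgs2 in every library and 83.2% to 98.3% for Alox5ap. For Ptgs1 it was 66.5% to 86.8%, and for Pla2g4a 62.0% to 81.5%. Ptger2 had 35.1% to 63.7% of its counts on a transcript with a retained intron. Ltc4s was the extreme case, with 0% to 43.7% on coding transcripts and 32.6% to 84.6% on processed transcripts that are not annotated as coding. For Ltc4s, most of the counts in each library were thus on transcripts without an annotated coding sequence. Exons of Ptgs1, Ptgis, Alox5ap, Ltc4s, Ptger4 and Ptger2 also overlap annotated genes on the opposite strand, by 82 to 1015 bases, and whether the counting used the strand was not given in the sources used here.

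Ratios within a library do not depend on how libraries are scaled. The log2 ratio of Ptgs2 to Ptgs1 was -1.03, -1.10 and 0.64 in LGK974 replicates 1, 2 and 3 and -0.84, -1.44 and -1.82 in DMSO replicates 1, 2 and 3. LGK974 replicate 3 was the only library with more Ptgs2 than Ptgs1 counts, and the groups overlapped (difference 0.87, exact permutation p = 0.3). Without DMSO replicate 1 they did not overlap, with a difference of 1.13. The exact permutation p was then 0.2, the smallest that this test can give without that library. For Alox5 to Alox5ap the log2 ratio averaged -0.78 ± 0.541 with LGK974 and -0.17 ± 0.552 with DMSO (SD, n = 3 each, two-sided exact permutation p = 0.2). The difference was -0.61, and -0.59 without DMSO replicate 1. The ratio of Ptges to Ptgis differed by -0.96 and that of Ptger4 to Ptger2 by 0.71, both with an exact permutation p of 0.4. These differences were -0.25 and 0.28 without DMSO replicate 1. The ratio of Ltc4s to Lta4h, the hydrolase that makes the other leukotriene, differed by -0.08, and by 0.17 without DMSO replicate 1. With all libraries, all 6 ratios tested overlapped between groups, with adjusted p-values of 0.6 to 1 over the 6. With 3 mice against 3 the smallest p this exact test can give is 0.1.

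Alox5ap is known from myeloid cells, and the markers of these cells also differed between the groups. Ptprc, the pan-leukocyte surface phosphatase CD45, averaged 45.3 ± 8.25 CPM with LGK974 and 26.3 ± 3.88 CPM with DMSO (SD, n = 3 each). Its log2 fold change was 0.79 (SE 0.190, unadjusted edgeR p of 0.00352), and DESeq2 gave an adjusted p of 0.0317. For Ptprc the log2 fold change was 0.88 without DMSO replicate 1. The log2 ratio of Alox5ap to Ptprc averaged -2.04 ± 0.207 with LGK974 and -1.97 ± 0.368 with DMSO, a difference of -0.07 (exact permutation p = 0.8), or -0.28 without DMSO replicate 1 (exact permutation p = 0.2). With all libraries the groups overlapped in this ratio, which does not show that it was equal. Without DMSO replicate 1 they did not overlap. The LGK974 libraries were then at -1.84, -2.02 and -2.26 and the DMSO libraries at -1.74 and -1.78. The p of 0.2 is the smallest that the exact test can give without that library.

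**Figure D4:**
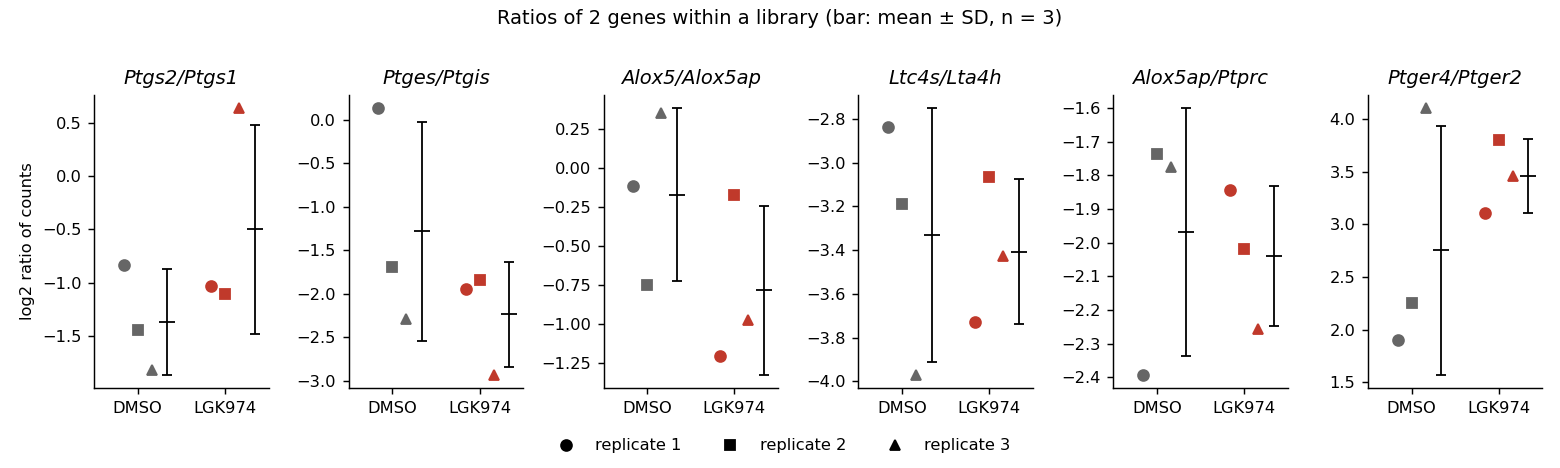
Log2 ratios of the counts of 2 genes within each library (vertical axis) for the 3 DMSO and the 3 LGK974 libraries, with bars for the group mean and its SD. The groups overlap for all 6 ratios, and the means of Alox5ap to Ptprc are -2.04 and -1.97.

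Of 14 leukocyte markers 13 were higher with LGK974 at an unadjusted edgeR p under 0.05, with a summed level of 518 to 718 CPM beside 297 to 350 CPM with DMSO. For 16 markers of monocytes and macrophages the count was 11, and the sum was 663 to 737 CPM beside 385 to 529 CPM. These counts were 12 and 13 without DMSO replicate 1. With all libraries, 6.26% of all tested genes were higher at this threshold. The authors reported the other direction from flow cytometry of whole hearts of other mice at the same time. There, leukocytes and inflammatory monocytes were fewer with LGK974. The leukocytes counted were CD45-positive cells negative for a set of lineage markers that included Ly6G, which is a part of all leukocytes. For macrophages and neutrophils the paper reported a trend without statistical significance. Marker RNA of the infarct area and cell numbers of the whole heart are different measures, and how they relate was not tested. Of 14 neutrophil markers 8 could be tested, 0 were higher and 1 was lower, and the sum was 36.4 to 52.6 CPM beside 45.3 to 90.7 CPM. Without DMSO replicate 1 this turned round, with 1 of 7 higher, 0 lower and a median log2 fold change of 0.14 in place of -0.25. The neutrophil genes Retnlg, Ly6g, Camp, Ngp, Ltf and Elane had 0 counts in at least 1 library. Mast cells are a known source of Ltc4s. Of 11 mast cell markers 10 could be tested and none had an unadjusted edgeR p under 0.05. The sums of these markers were 8.04 to 13.0 CPM beside 10.3 to 22.5 CPM. Their median log2 fold change was -1.15, and -0.16 over 7 genes without DMSO replicate 1.

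Cells known for Ptgs1 and Ptgis were looked at in the same way. Platelet markers, 8 of 10 tested, had 0 higher and 1 lower and summed to 41.9 to 47.5 CPM with LGK974 and 24.4 to 43.4 CPM with DMSO. Their median log2 fold change was -0.17, and -0.09 without DMSO replicate 1. Endothelial markers, 12 in all, had 0 in either direction, and sums of 788 to 847 CPM and 662 to 952 CPM. Of 14 fibroblast markers 13 had a positive log2 fold change and 5 were higher at an unadjusted edgeR p under 0.05, also without DMSO replicate 1, with sums of 3992 to 6277 CPM beside 2028 to 3134 CPM. The labelled tissue held cardiomyocyte transcripts in every library, with 45109 to 63628 CPM over 15 markers with LGK974 and 50690 to 70435 CPM with DMSO. Of the 15, 13 had a negative log2 fold change (median -0.42) but 0 were lower at an unadjusted edgeR p under 0.05, and the other 2, Nppa and Actc1 (named after their values were seen), were higher and were called by DESeq2. Without DMSO replicate 1 there were 2 higher and 2 lower and the median was -0.53. Markers of smooth muscle, mesothelial, T and B cells had 0 in either direction. What part these cell types had in the levels of the 10 genes was not tested.

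The wider pathway was read from 6 lists with 76 further genes, of which 66 could be tested. At an unadjusted edgeR p under 0.05, 3 were higher and 3 lower with LGK974, or 9.09% beside the 13.4% of all genes. Their median log2 fold change was -0.16, with 24 genes higher and 42 lower. DMSO replicate 1 was the highest library for 24 of the 66 genes, and for 40.3% of all tested genes. Without it, 61 genes could be tested, and the median was -0.07. At an unadjusted edgeR p under 0.05, 5 were then higher and 4 lower, beside 11.0% of all tested genes. In edgeR the share of the wider pathway was thus below that of all genes with all libraries and above it without DMSO replicate 1. The count moved with other libraries left out too. It was 7 without LGK974 replicate 1, beside 1526 of 18775 over all tested genes. Without LGK974 replicate 3 it was 2, beside 821 of 19712.

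Among phospholipases, 20 of 25 could be tested and the median was -0.23, or -0.08 without DMSO replicate 1. Pla2g15, a phospholipase of the lysosome, was at 13.7 ± 2.02 CPM with LGK974 and 9.05 ± 0.457 CPM with DMSO (log2 fold change 0.60, SE 0.176, unadjusted edgeR p of 0.00943). Pla2g4e, a relative of Pla2g4a, was at 4.61 ± 1.75 CPM and 8.46 ± 1.03 CPM (log2 fold change -0.88, SE 0.295, unadjusted edgeR p of 0.0184). Neither passed DESeq2, with adjusted p-values of 0.149 and 0.177. Their log2 fold changes were 0.64 and -0.89 without DMSO replicate 1. Plaa, named as an activator of phospholipases, was the most abundant of this list per length at 18.4 TPM, with a log2 fold change of 0.15.

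Of the other prostanoid synthases 8 of 9 could be tested, with a median of -0.04, or -0.06 without DMSO replicate 1. Hpgds, the prostaglandin D synthase of blood cells, was at 10.3 ± 1.41 CPM with LGK974 and 7.22 ± 1.40 CPM with DMSO (log2 fold change 0.51, SE 0.214, unadjusted edgeR p of 0.0454, adjusted DESeq2 p of 0.282), or 0.69 without DMSO replicate 1. Ptgds, the other prostaglandin D synthase, was the most abundant of the list at 90.9 TPM and had a log2 fold change of -0.36. The 2 synthases of the same product thus had values of opposite sign, and their difference was not tested.

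In the list of other leukotriene and lipoxygenase enzymes, 11 of 13 could be tested and the median was -0.66, or -0.22 without DMSO replicate 1. Alox12, the lipoxygenase of platelets, was at 3.25 ± 0.356 CPM with LGK974 and 5.63 ± 0.760 CPM with DMSO (log2 fold change -0.79, SE 0.243, unadjusted edgeR p of 0.0118, adjusted DESeq2 p of 0.190), or -0.67 without DMSO replicate 1. Mgst3, a glutathione transferase of membranes, was the most abundant at 39.8 TPM, with a log2 fold change of -0.73 (unadjusted edgeR p of 0.127, and 0.0495 without DMSO replicate 1).

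Of the other prostanoid and leukotriene receptors 11 of 12 could be tested, and none had an unadjusted edgeR p under 0.05. The median was -0.56 with all libraries and 0.26 without DMSO replicate 1, so its sign rested on that library. Ptgir, the receptor for the prostacyclin that Ptgis makes, was the most abundant of them at 1.85 TPM, with a log2 fold change of 0.33 and no overlap between groups in CPM. In the list on transport and breakdown, 10 of 11 could be tested, with 0 in either direction and a median of -0.08. Without DMSO replicate 1 there were 1 higher and 1 lower and the median was -0.12. The higher one was Ptgr1, a prostaglandin reductase named after its values were seen (log2 fold change 0.45 with all libraries, 0.73 without DMSO replicate 1, unadjusted edgeR p of 0.205 and 0.0472). Ephx2, the soluble epoxide hydrolase, led it at 32.3 TPM and had a log2 fold change of -0.79 (unadjusted edgeR p of 0.0665, and 0.0474 without DMSO replicate 1).

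The last list held 6 genes of the resolution of inflammation, with a median of -0.30, or -0.14 without DMSO replicate 1. Anxa1 encodes annexin A1, which is known to restrain phospholipases and to act on formyl peptide receptors. It was at 88.5, 82.2 and 62.7 CPM in LGK974 replicates 1, 2 and 3 and at 37.2, 46.2 and 33.6 CPM in DMSO replicates 1, 2 and 3. Each LGK974 library was well above each DMSO library. Its log2 fold change was 1.0 (SE 0.199, unadjusted edgeR p of 0.00116, adjusted p of 0.368), and it was the only gene of the 66 that DESeq2 called, with an adjusted p of 0.00318. For Anxa1 the log2 fold change was 0.99 without DMSO replicate 1. Gpr37, a receptor of the same list, had a log2 fold change of -1.41 (unadjusted edgeR p of 0.0308) that rested on 37.7 CPM in DMSO replicate 1, and the value was -0.41 without it.

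**Figure D5:**
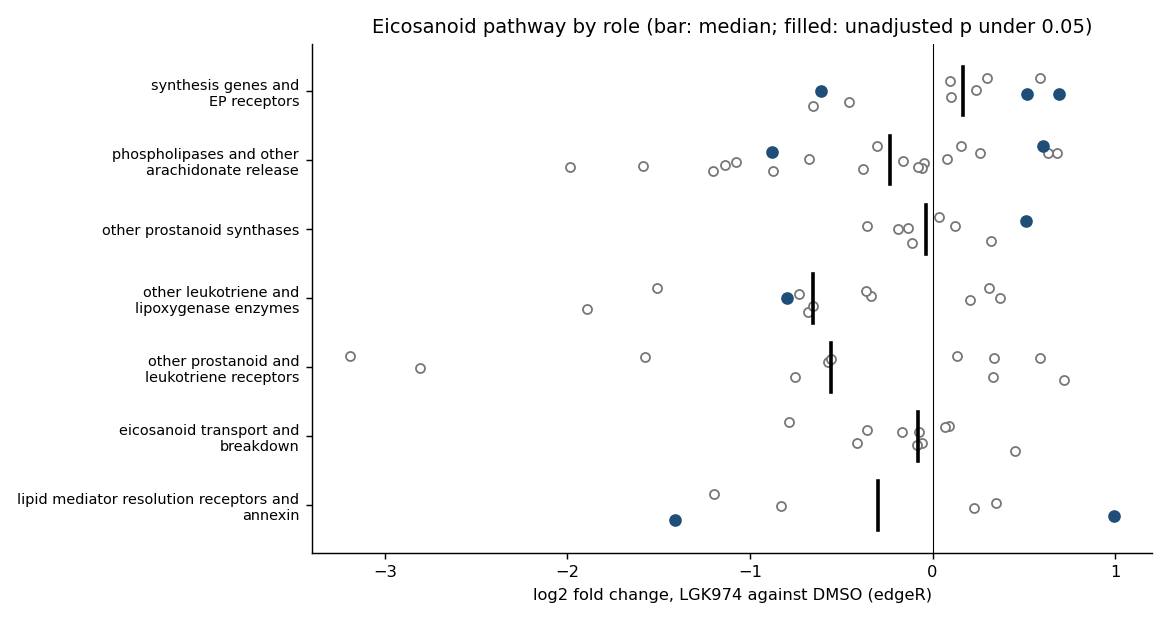
Log2 fold change (LGK974 against DMSO, horizontal axis) of each tested gene in the set of 10 and in the 6 lists of the wider pathway, with filled points for an unadjusted edgeR p under 0.05 and a bar for the median of each list. The medians run from -0.66 for the other leukotriene and lipoxygenase enzymes to 0.17 for the 10 genes.

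Genes with the most similar pattern over the 6 libraries were sought among 15516 genes with a mean of at least 1 CPM, for Ptgs2 and Alox5ap alone. For Alox5ap these were Vcan, a matrix proteoglycan (Pearson r of 0.997), Igf1, a growth factor (0.997), and Ccl2, a chemokine for monocytes (0.995). Ccl2 was at 44.1, 34.2 and 43.0 CPM in LGK974 replicates 1, 2 and 3 and at 12.6, 23.4 and 16.9 CPM in DMSO replicates 1, 2 and 3, so it was lowest where Alox5ap was lowest. For Ptgs2 they were Parva (0.997), an adaptor protein of focal adhesions, Cstf2 (0.991), which acts in the cleavage of mRNA ends, and Rasal3 (0.985). These are the highest of many values over 6 points that share the 2 treatments and the scaling, and are given as a description.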

How the data were processed

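Total RNA of infarct tissue was depleted of ribosomal RNA, and libraries were made with a kit that captures transcribed regions. The authors quantified transcripts with Kallisto on an index of GRCm38 and deposited, for each library, estimated counts, TPM and transcript lengths. The Kallisto version and read trimming were not given in the sources used here. Estimated counts are divided between transcripts that share reads, so near-identical or overlapping genes are uncertain. The deposited TPM are scaled to length and to the library's sum.

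Transcripts were joined by identifier to the GENCODE annotation of GRCm38 (116816 of 118489, 98.6%), summed per gene and rounded. In edgeR and limma-voom a gene was tested if 3 or more libraries held 10 or more counts. DESeq2 was run without this filter, on the 34257 genes with any count, and gave an adjusted p for 22238 of them. The test was edgeR 4.0.16 (R 4.3.3) with TMM normalisation and no factor besides treatment, adjusted by Benjamini-Hochberg at 0.05. Alternatives used DESeq2 1.42.0, limma-voom (limma 3.58.1), other scalings and filters, a replicate block, a subtracted background, and each library left out. Ratios were log2 of counts plus 0.5, tested with two-sided exact permutation tests over 20 splits. Figures were drawn with matplotlib 3.10.9. Scripts were tested on simulated data.

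Depth was 41579787 to 80398211 estimated counts. The common dispersion in edgeR, a measure of the spread between libraries, was 0.238 with all libraries and 0.0825 without DMSO replicate 1. Groups came from the sample labels. The genes, lists and motifs were chosen with earlier results of these data known. Beyond the 10 genes, the text names in each list the gene with the highest TPM and up to 4 genes with an unadjusted edgeR p under 0.05 or called by DESeq2, and Ptprc. It also names, for Ptgs2 and Alox5ap, the 3 genes with the highest Pearson r. Some symbols of the lists were matched through RefSeq synonyms.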

Additional observations from a re-analysis of the deposited data

How the results depend on the processing

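The number of genes called was 0 with edgeR and 0 to 2 with a library left out, the 2 without DMSO replicate 1. With no filter on low counts edgeR called 1206. DESeq2, also run without that filter, called 315, and 326 without DMSO replicate 1 (added after seeing the data). Of the 10 genes, 3 were at an unadjusted p under 0.05 in the main edgeR fit. It was 1 with library totals in place of TMM (Alox5ap) and 1 with counts scaled from TPM (Ptgs1). With a library left out it was 1 to 3. That count was 1 without LGK974 replicate 1, without LGK974 replicate 3, without DMSO replicate 2 or without DMSO replicate 3. Of the wider pathway it was 6, then 3 with library totals and 2 to 9 with a library left out, the 2 without LGK974 replicate 3. The count over all tested genes moved as well. It was 2699 of 20094 in the main fit, 2373 of 20094 with library totals and 2003 of 20447 with counts scaled from TPM. With a library left out it ran from 821 of 19712 (without LGK974 replicate 3) to 4628 of 19948 (without DMSO replicate 3). Library totals moved the median log2 fold change of all genes from -0.13 to 0.08.

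The sign of the log2 fold change turned under some alternatives. With counts scaled from TPM it was -0.026 for Ptgs2 and -0.20 for Alox5. With the background subtracted it was 0.052 for Ptges, 0.91 for Ptger2 and -0.0064 for Plaa. For Alox5 it was -0.017 with DESeq2 without DMSO replicate 1. With a library left out it ranged from -0.087 to 0.66 for Ptgs2, -0.63 to 0.0038 for Ptges, -0.11 to 0.48 for Alox5 and -0.024 to 0.33 for Ltc4s. The difference in the log2 ratio of Ltc4s to Lta4h was 0.11 with TPM and -0.39 to 0.17 with a library left out, and that of Alox5ap to Ptprc -0.28 to 0.045. The causes were not tested. Alox5ap, Pla2g4a, Ptgs1, Ptgis and Ptger4 kept their sign in every alternative.

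The replicate numbers 1, 2 and 3 are shared by the groups, and the labels do not say that they pair the mice. After removal of the group means, the same-number libraries correlated at 0.475, -0.0482 and 0.391. Libraries of different numbers correlated at -0.518 to 0.1. These values do not settle whether the numbers stand for a pairing or a shared batch. With the replicate block 3312 genes were at an unadjusted p under 0.05, 0 were called, and the 10 genes gave 3, with Ptgis (0.0477) in place of Pla2g4a (0.058).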
